A study of Mus musculus with 32 samples.

Results

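Maternal genes whose products act in the first activation of the embryonic genome were followed in mouse oocytes, namely Npm2, Smarca4, Smarca5, Ctcf, Trim24, Pou5f1, Yap1, Tead4 and Brwd1. They were taken by symbol from a list drawn up with earlier results of these data known, and all 9 were found among the 37441 genes of the count table. The study compared oocytes at the germinal vesicle stage (GV, fully grown and still in prophase of meiosis I) with mature oocytes at metaphase II (MII, arrested until fertilization) in the inbred mouse strains B6 and D2 and in their B6xD2 F1 hybrid. Each of the 32 libraries came from 9 to 20 oocytes pooled from one female aged 8 to 12 weeks, and GV oocytes were held in prophase with the phosphodiesterase inhibitor IBMX. For GV there were 5 libraries from B6, 5 from D2 and 6 from F1 females, and for MII 6, 5 and 5 in the same order. No transgene, mutation or hormone treatment is named in the labels for any group, and all oocytes had their zona pellucida removed with acid before RNA was taken.

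A fully grown oocyte stops transcription before it matures, so the embryo starts with stored RNA and protein and must switch on its own genome after fertilization. NPM2 is an oocyte nucleoplasmin, a histone chaperone that organizes chromatin and nucleoli. SMARCA4 (BRG1) and SMARCA5 (SNF2H) are the ATPases of the BAF and ISWI chromatin remodelling complexes, and CTCF is the zinc finger protein that anchors chromatin loops. TRIM24 and BRWD1 carry bromodomains, which read acetylated histones. POU5F1 (OCT4) is a transcription factor of pluripotent cells. YAP1 is the co-activator that the Hippo kinases hold out of the nucleus, and TEAD4 is one of the TEAD proteins through which it reaches DNA, best known for its role in the trophectoderm of the embryo. On GRCm38 the genes span Npm2 (chr14:70647296-70661802), Smarca4 (chr9:21616106-21704230), Smarca5 (chr8:80699943-80739459), Ctcf (chr8:105636474-105682922), Trim24 (chr6:37870811-37968445), Pou5f1 (chr17:35506032-35510777), Yap1 (chr9:7931999-8004638), Tead4 (chr6:128227143-128300813) and Brwd1 (chr16:95992089-96082703).

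The values are read counts per gene, given here as CPM, the count relative to the library total after TMM scaling, and depth ran from 18.7 to 39.7 M reads per library. Per the labels the libraries fall into batch 1, with 18 libraries, and batch 2, with 14, which were sequenced on different instruments, and batch was a term in every fit. The 12 oocyte markers were present in all libraries, with a summed level of 9670 to 13400 CPM in GV and 7840 to 11800 CPM in MII. Of these, 6 were lower in MII and 3 higher. Granulosa and cumulus markers differed in level between the stages: over 24 genes the sum was 187 to 4080 CPM in GV and 108 to 218 CPM in MII, 17 of 22 tested were lower in MII and 2 higher, and Foxl2 and Slc38a3 were at 0 in every MII library. Of 12 markers of stroma, blood and endothelium, 9 were lower in MII and 1 higher, with sums of 19.1 to 409 CPM in GV and 34.5 to 79.0 CPM in MII. Every level is a share of its library, since RNA per oocyte was not measured, so fewer follicle cells and less RNA per cell cannot be told apart.

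The 9 genes spanned more than 3 orders of magnitude. Per length of the longest coding transcript, the mean level in GV oocytes was 482 ± 143 CPM per kb for Npm2 (SD, n = 16), 144 ± 23.2 for Yap1, 105 ± 21.0 for Trim24 and 72.3 ± 13.5 for Brwd1. Below them came Pou5f1 at 44.6 ± 18.0 CPM per kb, Ctcf at 39.3 ± 8.57, Smarca5 at 31.6 ± 6.60, Smarca4 at 17.9 ± 4.35 and Tead4 at 0.105 ± 0.184. In MII oocytes Npm2 at 234 ± 89.4 CPM per kb and Yap1 at 217 ± 24.9 lay within overlapping SDs, and Pou5f1 at 31.3 ± 8.95 lay below Ctcf at 54.3 ± 7.35 and Smarca5 at 37.0 ± 7.96. In GV the SDs of each neighbouring pair from Yap1 down to Smarca5 overlapped, and in MII those of Smarca5 with Pou5f1 and of Pou5f1 with Smarca4 did. The genes were measured in the same libraries, so overlapping SDs do not decide the order within a library. Trim24, for example, lay above Brwd1 per kb in every GV library. By mean CPM over both stages, not divided by length, Brwd1 ranked 149 and Yap1 183 of the 19003 tested genes.

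**Figure D1:**
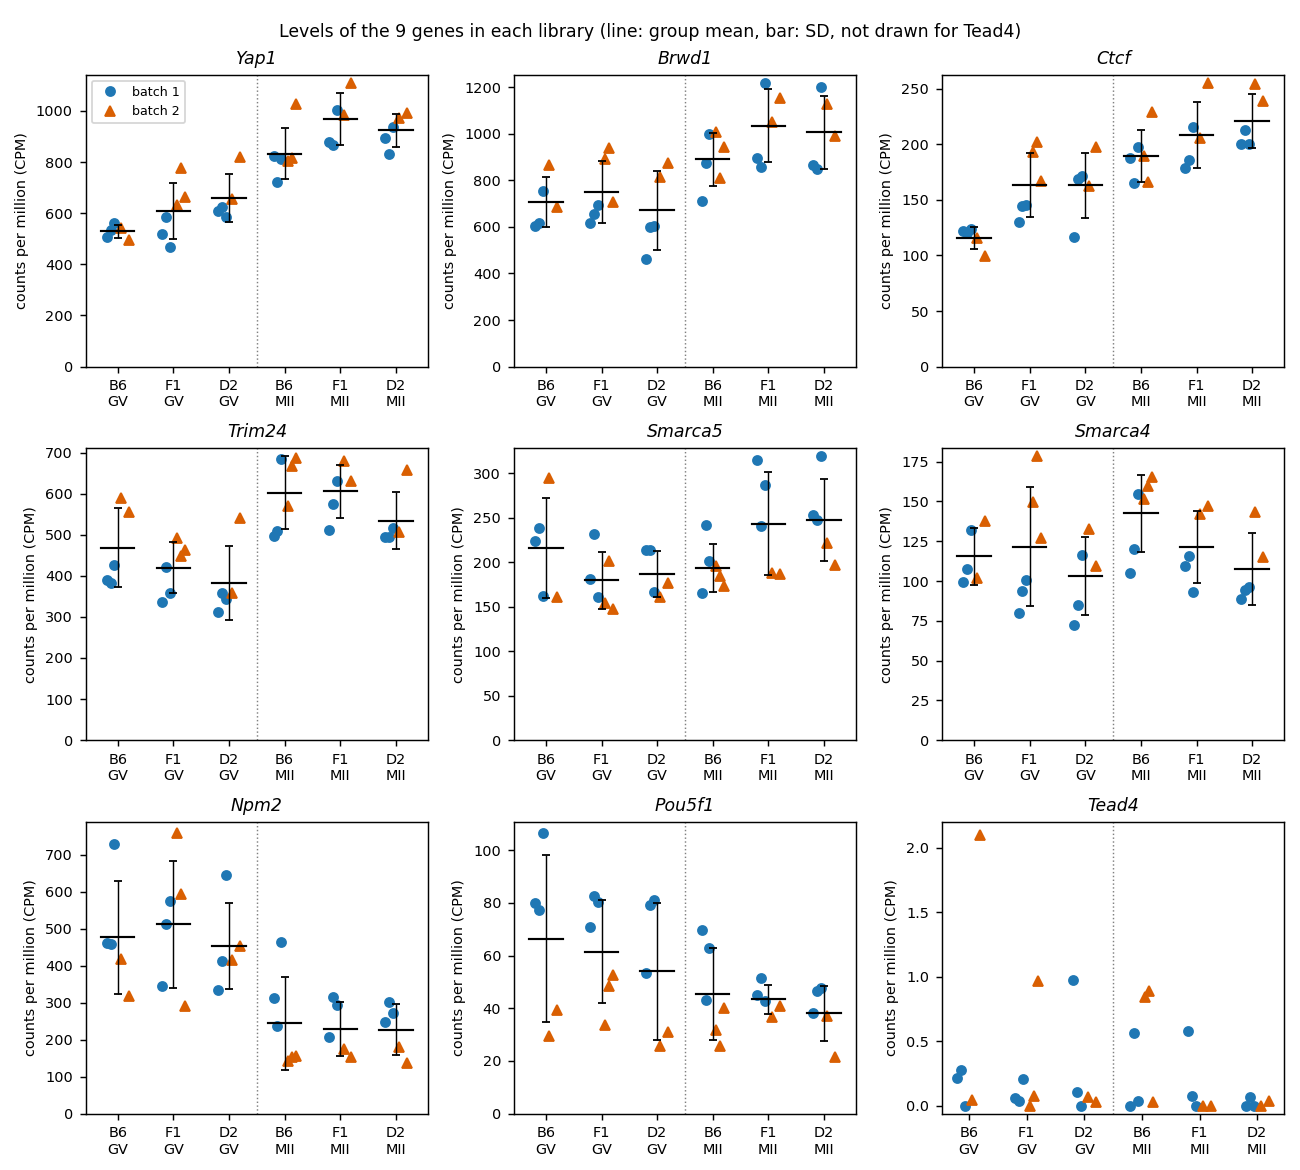
Level of each gene in CPM (vertical axis) in every library of the 6 strain-by-stage groups (horizontal axis), with circles for batch 1 and triangles for batch 2; horizontal lines are group means and bars are SDs, left out for Tead4. Yap1 shows 12 of 16 MII libraries above every GV library, Npm2 shows 11 of 16 below, and Pou5f1 is lower in batch 2 than in batch 1, most of all in GV.

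The first comparison asked how the stored transcripts differ by stage. As a mean of the 3 strains, 5 of the 9 genes rose (Yap1, Ctcf, Brwd1, Trim24 and Smarca5), 2 fell (Npm2 and Pou5f1), and Smarca4 and Tead4 did not pass the test. Each p is from the edgeR quasi-likelihood fit, two-sided and adjusted over all genes (Benjamini-Hochberg), with 0.05 as the threshold. By the same rule 51.9% of all tested genes were called, 22.9% higher and 29.0% lower, which is the background for 7 called of 9. The median log2 change was 0.22 over the 9 genes and −0.06 over all tested genes. The latter depends on the filter on low counts. With at least 1 CPM in at least 16 libraries it was 0.04 over 12941 genes, and Smarca5, the middle one of the 9, was at 0.16. Without a scaling factor the median of all genes moved to −0.30, and the changes of the members moved down with it, to 0.37 for Yap1, 0.26 for Ctcf, 0.24 for Trim24 and for Brwd1, −0.01 for Smarca5, −0.68 for Pou5f1 and −1.33 for Npm2. With the granulosa marker level as a covariate, which differs in level between the stages, 2 of the 9 were called, Yap1 at 0.47 and Npm2 at −1.69 on the log2 scale. Calls over all genes went from 9862 to 2344 in that fit.

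Yap1 was the member with the lowest p. Its level ran from 467 to 820 CPM in the 16 GV libraries, with a median of 586, and from 721 to 1110 CPM in the 16 MII libraries, with a median of 886. The stages overlapped in few libraries, as 12 of 16 MII libraries lay above every GV library, 9 of 9 within batch 1 and 5 of 7 within batch 2. The log2 change was 0.61 ± 0.05 (SE, adjusted p = 1.53e-11), a 1.52-fold rise. It was 0.63 ± 0.09 in B6, 0.70 ± 0.09 in F1 and 0.49 ± 0.10 in D2, and 0.62 in batch 1 alone and 0.52 in batch 2 alone (adjusted p = 0.00042). In the 3 GV libraries with the lowest granulosa marker level Yap1 was at 544 CPM in B6, 630 CPM in F1 and 820 CPM in D2, of which the D2 library lies in the MII range.

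Tead4 was close to undetected. It had 243 reads in all 32 libraries together, 0 reads in 10 libraries (3 GV and 7 MII), 1 to 3 reads in 12, and at least 10 reads in 7. A count of 0 allows a level of up to 0.0748 to 0.159 CPM, from 3 reads in the deepest and the shallowest library, for counting error only. The highest library, B6 GV batch 2 replicate 2, held 51 reads, or 2.10 CPM. Tead4 passed the filter on low counts, but its log2 change of −1.38 ± 0.83 did not pass the test (adjusted p = 0.165), and its approximate 95% interval ran from −3.00 to 0.24.

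Other members of the YAP1 and TEAD pathway were present at other levels. Tead1, at 3.67 ± 1.31 CPM per kb in GV and 3.32 ± 1.82 in MII (SD, n = 16), lay above Tead4 in 32 of 32 libraries, Tead3 in 31 and Tead2 in 29. Tead3 rose by 0.51 ± 0.21 on the log2 scale (adjusted p = 0.0421), whereas Tead1 changed by −0.16 ± 0.10 (adjusted p = 0.159) and Tead2 by −0.70 ± 0.46 (adjusted p = 0.205). Wwtr1, which encodes TAZ, the relative of YAP1, fell from 11.3 ± 4.13 to 1.73 ± 1.16 CPM, by 2.77 ± 0.29 on the log2 scale. Granulosa and cumulus markers fell with it, as given above, and their part in the Wwtr1 result was not tested.

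**Figure D2:**
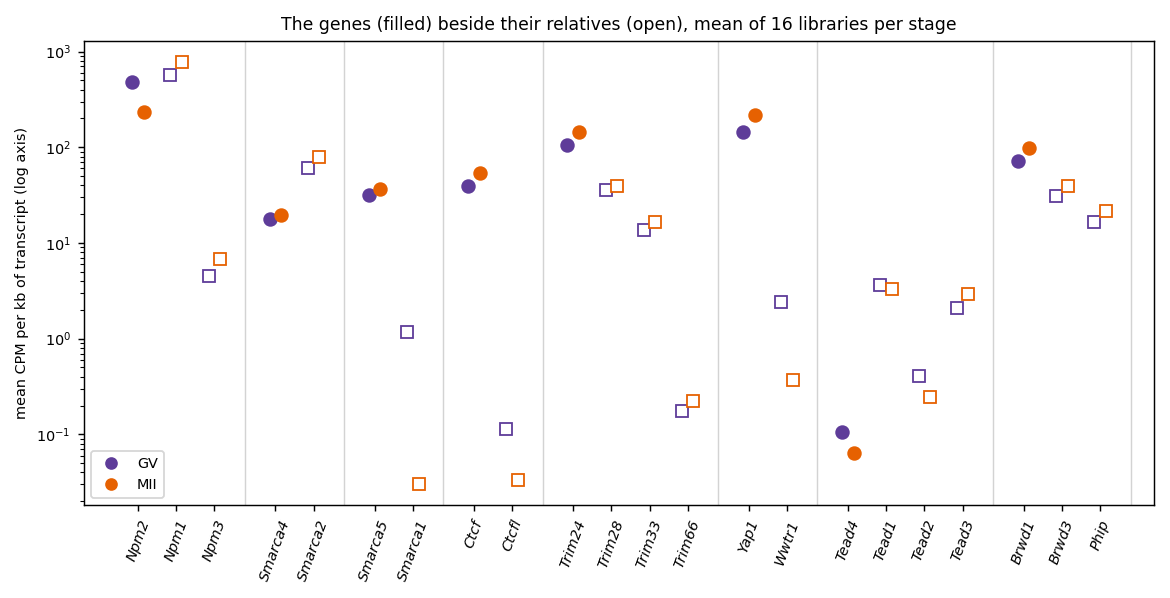
Mean level in CPM per kb of the longest coding transcript (vertical log axis) of the genes (filled circles) and of their closest relatives (open squares) in GV (purple) and MII (orange), 16 libraries each. Tead4 is the lowest of the TEAD genes, Yap1 lies far above Wwtr1, and Npm2 and Npm1 move apart between the stages.

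Trim24 ran from 311 to 589 CPM in GV, with a median of 407, and from 493 to 687 CPM in MII, with a median of 572. All 9 MII libraries of batch 1 lay above every GV library of that batch, and 5 of 7 did so in batch 2. It rose by 0.47 ± 0.06 on the log2 scale (adjusted p = 7.2e-08), with 0.35 ± 0.10 in B6, 0.57 ± 0.10 in F1 and 0.49 ± 0.11 in D2. The rise was 0.55 in batch 1 and 0.27 in batch 2 (adjusted p = 0.0466), and 0.20 with the granulosa level as a covariate (adjusted p = 0.266). Its relative Trim33 rose by 0.33 ± 0.07, while Trim28, which encodes the KAP1 co-repressor, changed by 0.18 ± 0.08 (adjusted p = 0.0504).

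Brwd1 ran from 463 to 937 CPM in GV, with a median of 690, and from 713 to 1220 CPM in MII, with a median of 966. Within batch 1, 8 of 9 MII libraries lay above every GV library, and 6 of 7 did so within batch 2. It rose by 0.47 ± 0.07 on the log2 scale (adjusted p = 9.68e-07), with 0.61 ± 0.13 in D2, 0.50 ± 0.12 in F1 and 0.32 ± 0.12 in B6. The B6 value was at the threshold (adjusted p = 0.0498) and lost it in 14 of 32 fits that each left out a library, the highest adjusted p being 0.151 without B6 GV batch 2 replicate 2. Over the strains the rise was 0.58 in batch 1, 0.24 in batch 2 (adjusted p = 0.0659) and 0.30 with the granulosa covariate (adjusted p = 0.146). Both relatives rose as well, Brwd3 by 0.46 ± 0.09 and Phip by 0.37 ± 0.06.

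Ctcf ran from 99.1 to 202 CPM in GV, with a median of 145, and from 166 to 255 CPM in MII, with a median of 200. Of the MII libraries, 8 of 9 in batch 1 and 5 of 7 in batch 2 lay above every GV library of their batch. The rise was 0.50 ± 0.07 on the log2 scale (adjusted p = 1.1e-07), and 0.68 ± 0.11 in B6, 0.37 ± 0.11 in F1 and 0.44 ± 0.12 in D2. It was 0.48 in batch 1 and 0.46 in batch 2, and 0.33 with the granulosa covariate (adjusted p = 0.0972). Ctcfl, its relative best known from the male germ line, was at 0.365 CPM in GV and 0.108 CPM in MII. A pseudogene inside the Ctcf span, Gm5915, had 0.43% to 9.83% of the reads counted for Ctcf. The median share was 4.78% in GV and 1.36% in MII, and Gm5915 fell by 1.45 on the log2 scale (adjusted p = 5.53e-08).

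Of the genes of remodelling ATPases, Smarca4 ran from 72.7 to 178 CPM in GV, with a median of 108, and from 88.8 to 165 CPM in MII, with a median of 118. Of the MII libraries, 1 of 9 in batch 1 and 0 of 7 in batch 2 lay above every GV library of their batch. By strain 4 of 6 did so in B6, 0 of 5 in F1 and 1 of 5 in D2. Its log2 change was 0.12 ± 0.08 (adjusted p = 0.197), with an interval from −0.03 to 0.27. It was 0.24 ± 0.13 in B6 (adjusted p = 0.181), 0.062 ± 0.131 in F1 and 0.055 ± 0.137 in D2. Smarca2, the alternative ATPase of the same complex, lay above Smarca4 per kb in 32 of 32 libraries, at 60.2 ± 19.2 CPM per kb in GV and 79.6 ± 29.8 in MII, and rose by 0.35 ± 0.05 (adjusted p = 1.25e-06).

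Smarca5 ran from 148 to 294 CPM in GV, with a median of 179, and from 166 to 320 CPM in MII, with a median of 211. In batch 1 7 of 9 MII libraries lay above every GV library, and in batch 2 0 of 7 did. The mean rise was 0.22 ± 0.08 on the log2 scale (adjusted p = 0.0262), made up of 0.40 ± 0.14 in F1, 0.40 ± 0.15 in D2 and −0.14 ± 0.14 in B6 (adjusted p = 0.509). The difference between the changes in D2 and B6 was 0.55 ± 0.21 and did not pass the test (adjusted p = 0.379). The change was 0.31 in batch 1 and −0.02 in batch 2 (adjusted p = 0.953), and it missed the threshold at 0.18 with median-of-ratios scaling (adjusted p = 0.0716). The mean call was lost when any of 8 libraries was left out, all of batch 1. These were B6 GV replicates 2 and 5, B6 MII replicate 2, F1 GV replicates 2 and 5, F1 MII replicate 3, D2 GV replicate 5 and D2 MII replicate 4, with adjusted p from 0.0506 to 0.0859. The F1 call was lost without any of 5 F1 libraries (GV batch 2 replicate 3, GV batch 1 replicates 2 and 5, MII batch 1 replicates 3 and 5, adjusted p up to 0.108), and the D2 call in 16 of 32 such fits (adjusted p up to 0.198, without D2 GV batch 1 replicate 5). Counts of a transcribed pseudogene copy, Smarca5-ps, stood at 32.9% to 37.9% of those of Smarca5 in every library and rose by 0.22, so the reads of the pair may be divided by the authors' counting and the level of Smarca5 is uncertain. The other ISWI ATPase gene, Smarca1, fell from 5.62 CPM in GV to 0.145 CPM in MII. The granulosa and cumulus markers fell with it, and their part in the Smarca1 result was not tested.

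Npm2 ran from 291 to 758 CPM in GV, with a median of 456, and from 136 to 465 CPM in MII, with a median of 222. Of the MII libraries, 8 of 9 in batch 1 and 7 of 7 in batch 2 lay below every GV library of their batch. It fell by 1.10 ± 0.15 on the log2 scale (adjusted p = 3.59e-07), to 0.465 of its GV level. The fall was 0.97 ± 0.25 in B6, 1.29 ± 0.26 in F1 and 1.05 ± 0.26 in D2, and the change was −0.78 in batch 1 and −1.57 in batch 2. Npm1, the nucleoplasmin of most cell types, rose by 0.48 ± 0.09 (adjusted p = 2.06e-05), and lay above Npm2 per kb in 10 of 16 GV and 16 of 16 MII libraries.

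Pou5f1 ran from 25.6 to 107 CPM in GV, with a median of 62.1, and from 21.4 to 69.6 CPM in MII, with a median of 41.8. It fell by 0.44 ± 0.11 on the log2 scale (adjusted p = 0.000901), and the change was −0.17 with the granulosa covariate (adjusted p = 0.706). In batch 1 it fell, from 79.0 ± 13.8 to 49.7 ± 10.2 CPM (SD, n = 9, log2 change −0.70), where 7 of 9 MII libraries lay below every GV library. In batch 2 the level was 37.2 ± 10.1 CPM in GV and 33.3 ± 7.45 CPM in MII (SD, n = 7), with a log2 change of −0.16 (adjusted p = 0.529). By strain the F1 change passed (−0.51 ± 0.19, adjusted p = 0.0335), and the B6 change of −0.41 ± 0.19 (adjusted p = 0.106) and the D2 change of −0.42 ± 0.20 (adjusted p = 0.109) did not. The F1 call was lost without any of 6 F1 libraries, namely GV batch 1 replicate 3, GV batch 2 replicates 2 and 3, and MII batch 1 replicates 3, 4 and 5, with adjusted p from 0.0553 to 0.11. Pou5f1 was lower in batch 2 by the largest margin of the 9 genes, with a log2 difference of −0.85 ± 0.11 (adjusted p = 8.51e-08), and 7 others also differed between the batches, from −0.52 for Npm2 to 0.42 for Smarca4.

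**Figure D3:**
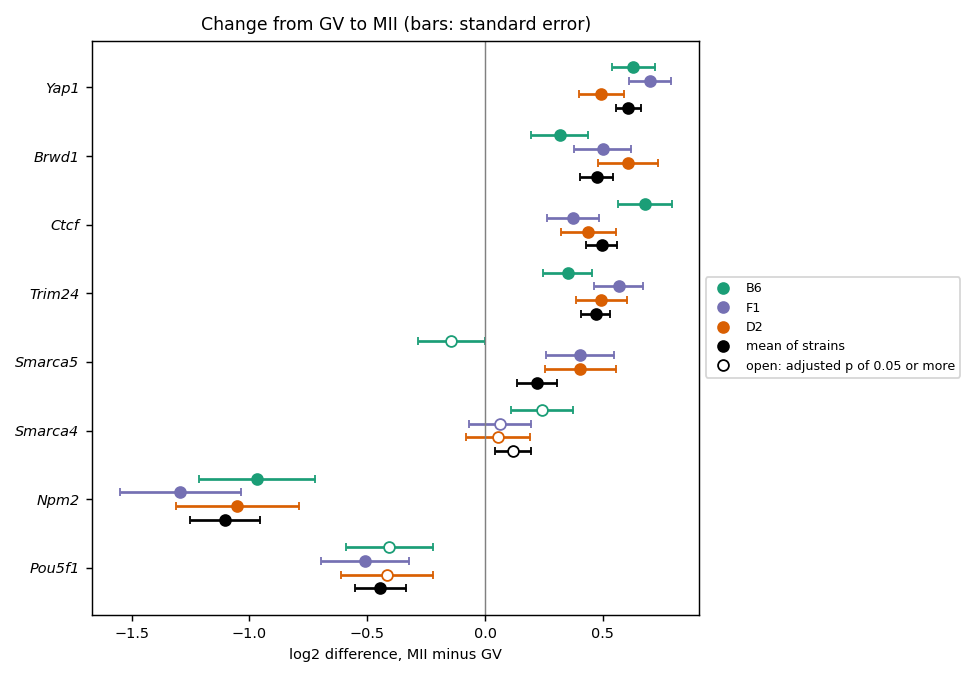
Log2 difference of MII from GV (horizontal axis) for 8 genes in each strain and as the mean of the strains, with SE bars; open symbols did not pass the test. The 4 genes at the top rose in each strain, Npm2 fell in each, and Smarca5 lies at −0.14 in B6 against 0.40 in F1 and D2.

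Each strain was also tested alone. In B6, 5 members were called (4 higher, 1 lower) where 26.7% of all genes were, in F1 7 were called (5 higher, 2 lower) against 32.9%, and in D2 6 were called (5 higher, 1 lower) against 28.7%. Tests of the difference in stage change called none of the 9, either for D2 against B6 (0.105% of all genes called) or for F1 against the mid-parent, the mean of the parents' log2 levels (0.00526%). Among the 9, Smarca5 had the lowest p in both. For Yap1 the D2 and B6 changes differed by −0.14 ± 0.13, with an interval from −0.39 to 0.12, and for Npm2 by −0.09 ± 0.36, from −0.79 to 0.62.

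Pairwise correlations between the genes ranged widely. After the batch means were taken out, log2 CPM was correlated over the 32 libraries. Values of r were 0.88 for Ctcf with Yap1, 0.77 for Yap1 with Brwd1 and 0.73 for Ctcf with Brwd1. Trim24 had 0.73 with Brwd1, 0.68 with Yap1 and 0.48 with Ctcf. These points share the stage difference, and within group and batch the values were 0.54, 0.36, 0.61, 0.35, 0.49 and 0.43 in the same order. Smarca5, which also rose, had r = 0.52 with Brwd1, 0.42 with Yap1, 0.41 with Trim24 and 0.21 with Ctcf. Within group and batch its values were 0.31, 0.28, 0.02 and 0.02. Npm2, which fell, had negative values over all libraries with Yap1 (−0.67), Trim24 (−0.52), Ctcf (−0.43), Brwd1 (−0.39) and Smarca5 (−0.39). Within group and batch these were 0.12, 0.41, 0.57, 0.56 and −0.16, so correlation within groups was not limited to pairs of genes that rose. All these correlations are descriptions of libraries that also share their scaling factor. The start regions of Yap1, Ctcf, Trim24 and Brwd1 are printed because these 4 genes rose in each strain. They are RefSeq sequences of GRCm38.p6 from 250 bases before to 50 after the start in a promoter record, in the direction of transcription. They lie at chr9:8004547-8004846 (minus strand) for Yap1, chr8:105636288-105636587 (plus) for Ctcf, chr6:37870561-37870860 (plus) for Trim24 and chr16:96082379-96082678 (minus) for Brwd1. For Trim24 that start is the first base of the gene span given above. For Yap1, Ctcf and Brwd1 it lies inside the span, and the Brwd1 window lies wholly inside, so none of it precedes the span. Capitals mark GC boxes, the letters GGGCGG or, on the other strand, CCGCCC.
Yap1: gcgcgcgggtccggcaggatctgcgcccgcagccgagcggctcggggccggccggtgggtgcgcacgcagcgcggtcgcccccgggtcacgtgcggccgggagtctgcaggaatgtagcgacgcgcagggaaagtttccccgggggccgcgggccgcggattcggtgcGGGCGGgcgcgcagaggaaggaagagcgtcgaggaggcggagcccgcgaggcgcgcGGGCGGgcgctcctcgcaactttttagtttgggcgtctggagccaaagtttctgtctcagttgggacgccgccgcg
Ctcf: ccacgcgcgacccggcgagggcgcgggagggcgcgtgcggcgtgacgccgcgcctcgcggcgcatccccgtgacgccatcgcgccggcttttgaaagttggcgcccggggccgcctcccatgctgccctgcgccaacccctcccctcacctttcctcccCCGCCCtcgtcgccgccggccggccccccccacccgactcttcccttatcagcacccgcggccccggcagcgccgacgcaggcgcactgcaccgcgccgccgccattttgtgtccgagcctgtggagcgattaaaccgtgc
Trim24: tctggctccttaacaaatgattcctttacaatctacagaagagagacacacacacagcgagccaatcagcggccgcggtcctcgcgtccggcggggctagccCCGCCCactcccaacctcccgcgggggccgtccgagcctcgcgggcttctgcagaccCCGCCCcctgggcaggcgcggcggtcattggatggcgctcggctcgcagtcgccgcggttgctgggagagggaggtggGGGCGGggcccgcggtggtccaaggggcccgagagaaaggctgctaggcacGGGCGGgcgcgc
Brwd1: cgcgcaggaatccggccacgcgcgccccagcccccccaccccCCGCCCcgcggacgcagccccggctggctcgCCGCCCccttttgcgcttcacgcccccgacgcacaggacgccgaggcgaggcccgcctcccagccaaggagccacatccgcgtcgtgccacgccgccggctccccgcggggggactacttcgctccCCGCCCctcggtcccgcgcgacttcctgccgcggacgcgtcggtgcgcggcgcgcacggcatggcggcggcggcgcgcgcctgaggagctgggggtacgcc

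The sequences are rich in G and C, with 74.0% for Yap1, 75.3% for Ctcf, 70.3% for Trim24 and 80.0% for Brwd1, against a median of 52.7% over 32851 promoters of the same length. They hold 49, 47, 33 and 52 CpG dinucleotides in the same order, at 1.23, 1.16, 0.89 and 1.11 of the number that base composition gives, where the median promoter has 0.38. Start regions were found for 7 of the 9 genes (not for Npm2 and Tead4), and each of the 7 has a GC box, which 35.7% of all promoters have. A GC box holds only G and C, and its share among promoters of like composition was not taken. Smarca4 and Smarca5 hold 33 and 32 CpG dinucleotides, at 0.85 and 0.94 of the number composition gives. Pou5f1 holds 11, at 0.37, which is near the median promoter. Since Npm2 has no start region here, CpG content cannot be compared between genes that rose and genes that fell. The TEAD core CATTCC, or GGAATG on the other strand, was found in Yap1 at position −141 and in none of the other 6 (14.7% of all promoters). CCAAT, or ATTGG, was found in Trim24 and Pou5f1 (37.4% of all), the palindrome CACGTG in Yap1 (7.2%), and the octamer ATGCAAAT, or ATTTGCAT, in none of the 7 (1.7%). These matches are letters in a window, not sites of binding.

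The next comparison set the parental strains against each other within a stage. In GV oocytes Ctcf and Yap1 were higher in D2 than in B6, and in MII oocytes Smarca4 was lower in D2, while the other members did not pass the test. This is 2 of 9 called in GV, where 20.5% of all genes were called, and 1 of 9 in MII, where 26.4% were.

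Ctcf in the 5 B6 GV libraries was at 99.1, 116, 120, 122 and 124 CPM, and in the 5 D2 GV libraries at 117, 162, 169, 171 and 197 CPM. Only D2 GV batch 1 replicate 3, at 117 CPM, overlaps the B6 libraries. The difference was 0.48 ± 0.12 on the log2 scale (adjusted p = 0.00251), 0.39 in batch 1 (adjusted p = 0.0764) and 0.77 in batch 2 (adjusted p = 0.00936). A batch term of 3 levels, which separates the sets of batch 2, gave 0.45 (adjusted p = 0.00388). In F1 GV oocytes Ctcf ran from 130 to 202 CPM with a median of 156, and all 6 libraries lay above every B6 library. That difference was 0.46 ± 0.11 (adjusted p = 0.0107), and Ctcf was the only member called in F1 against B6 in GV, where 5.50% of all genes were called. It was 0.20 in batch 1 (adjusted p = 0.807), 0.80 in batch 2 (adjusted p = 0.0104), and 0.40 without the 3 GV libraries lowest in granulosa markers (adjusted p = 0.0854). With the batch term of 3 levels it was 0.41 (adjusted p = 0.0339). Both comparisons share the B6 libraries. In MII oocytes the difference of D2 from B6 in Ctcf was 0.24 ± 0.11 (adjusted p = 0.116).

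Yap1 in the 5 B6 GV libraries was at 497, 509, 533, 544 and 561 CPM, and in the 5 D2 GV libraries at 585, 609, 626, 657 and 820 CPM. The strains did not overlap. The difference was 0.31 ± 0.10 on the log2 scale (adjusted p = 0.0165), 0.25 in batch 1 (adjusted p = 0.195) and 0.53 in batch 2 (adjusted p = 0.0409). With the batch term of 3 levels it was 0.3 (adjusted p = 0.0221). Without the highest library, D2 GV batch 2 replicate 2, it was 0.25 (adjusted p = 0.0729), and without the 3 GV libraries lowest in granulosa markers, of which that is one, 0.23 (adjusted p = 0.136). In MII oocytes the difference was 0.17 ± 0.09 (adjusted p = 0.168).

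Smarca4 in the 6 B6 MII libraries ran from 105 to 165 CPM with a median of 153, and in the 5 D2 MII libraries it was at 88.8, 94.3, 96.1, 115 and 144 CPM. The 3 lowest D2 libraries, all of batch 1, lay below every B6 library. The difference was −0.37 ± 0.13 on the log2 scale (adjusted p = 0.032), −0.49 in batch 1 (adjusted p = 0.0612) and −0.34 in batch 2 (adjusted p = 0.267). With the batch term of 3 levels it was −0.46 (adjusted p = 0.00484). The call was lost without any of 6 libraries, namely B6 MII batch 1 replicate 3, D2 MII batch 1 replicates 2, 3 and 4, D2 MII batch 2 replicate 2 and B6 GV batch 2 replicate 2, with adjusted p from 0.0507 to 0.0962. In GV oocytes the D2 difference was −0.19 ± 0.14. Reads were aligned to one reference genome, and whether D2 sequence differences lower a D2 count was not tested.

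Trim24 lay near the threshold. In the 5 B6 GV libraries it was at 382, 391, 426, 555 and 589 CPM, and in D2 GV at 311, 343, 357, 358 and 540 CPM, so that 4 of 5 D2 libraries lay below every B6 library. The log2 difference of −0.29 ± 0.11 did not pass (adjusted p = 0.0542), and the value depended on single libraries. It was −0.39 without D2 GV batch 2 replicate 2 (adjusted p = 0.00801) and −0.14 without D2 GV batch 2 replicate 1 (adjusted p = 0.447), and it passed in 6 of 14 other settings. Of the members not named, Npm2 differed between D2 and B6 by −0.03 ± 0.26 in GV and −0.12 ± 0.25 in MII, with intervals of −0.54 to 0.47 and −0.60 to 0.37, and Brwd1 by −0.09 ± 0.13 and 0.20 ± 0.12.

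**Figure D4:**
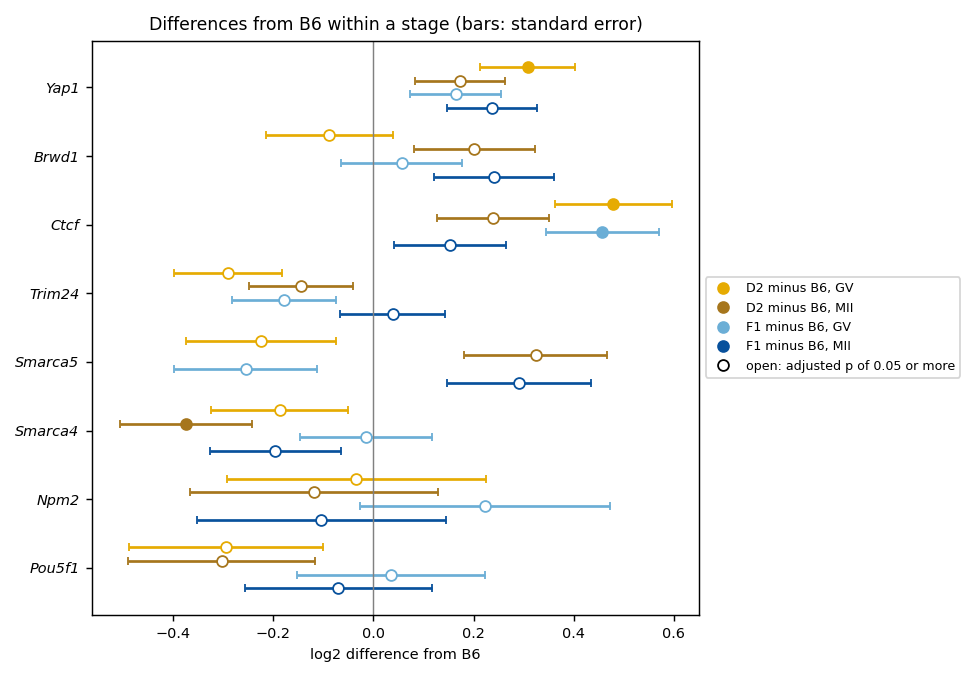
Log2 difference from B6 (horizontal axis) of D2 and F1 oocytes in GV and in MII for 8 genes, with SE bars; open symbols did not pass the test. Filled symbols are Ctcf in GV for D2 and F1, Yap1 in GV for D2, and Smarca4 in MII for D2.

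For the hybrid the question was whether its oocytes depart from either parent or from the mid-parent. No member was called in F1 against B6 in MII (7.36% of all genes called), in F1 against D2 in GV (6.05%) or in MII (8.11%), or against the mid-parent in GV (0.879%) or in MII (1.16%). Against the mid-parent the differences of the 8 genes other than Tead4 lay between −0.14 for Smarca5 and 0.24 for Npm2 in GV, and between −0.04 for Npm2 and 0.15 for Yap1 in MII. The interval for Yap1 was −0.14 to 0.16 in GV and −0.01 to 0.31 in MII, and that for Ctcf was 0.03 to 0.40 in GV (adjusted p = 0.611) and −0.16 to 0.23 in MII. Those for Npm2, −0.17 to 0.65 and −0.48 to 0.39, leave room for larger departures.

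Lists of partner genes place the members among their complexes and pathways. Between GV and MII, 14 of 20 tested TIF1 and bromodomain relatives rose and 2 fell (median log2 change 0.34), as did 13 and 1 of 19 nucleoplasmins and histone chaperones (0.31) and 11 and 3 of 19 cohesin and loop genes (0.30). Of 12 ISWI partners 7 rose and 2 fell (0.22), of 27 BAF subunits 13 and 7 (0.19), of 21 pluripotency factors 8 and 5 (0.19), of 26 Hippo pathway genes 10 and 5 (0.11), and of 34 other maternal activation factors 13 and 12 (0.10). Of 13 tested genes of the activated embryonic genome 4 rose and 4 fell (−0.25), and of 8 trophectoderm genes none rose and 2 fell (−0.10). The median over all tested genes was −0.06, and 22.9% of them rose and 29.0% fell. With a filter of 1 CPM in at least 16 libraries that median was 0.04, and the lists were not counted again under it. With the granulosa marker level as a covariate the calls over all genes went from 9862 to 2344, and the lists were not counted again in that fit.

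Among bromodomain genes Brd1 rose from 312 ± 57.5 to 565 ± 90.5 CPM (SD, n = 16 each), Crebbp, an acetyltransferase, from 819 ± 191 to 1150 ± 254 CPM, and Brpf3 by 0.54 ± 0.07 on the log2 scale. In the cohesin list Esco1, a cohesin acetyltransferase, rose by 0.64 ± 0.07, Wapl, the cohesin release factor, by 0.58 ± 0.07, the loader gene Nipbl by 0.48 ± 0.07 and the subunit gene Rad21 by 0.45 ± 0.07. Of the BAF genes Ss18 rose by 0.79 ± 0.09, Ss18l1 by 0.64 ± 0.08, Brd7 by 0.63 ± 0.07 and Arid2 by 0.47 ± 0.04. Of the ISWI partners Baz2a rose by 0.56 ± 0.06, Cecr2 by 0.47 ± 0.04, Bptf by 0.46 ± 0.06 and Baz1b by 0.45 ± 0.07. Asf1b, Nap1l1 and Ubn2, genes of histone chaperones, rose by 0.49 ± 0.08, 0.47 ± 0.06 and 0.39 ± 0.05. In the Hippo list Wwc2 rose by 0.59 ± 0.06, the kinase gene Taok1 by 0.45 ± 0.06 and the 14-3-3 gene Ywhaz by 0.42 ± 0.06.

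Of the other maternal factors Dnmt1, the maintenance DNA methyltransferase, fell from 3300 ± 872 to 1750 ± 376 CPM, Padi6 from 958 ± 123 to 602 ± 105 CPM, Zar1 from 314 ± 58.3 to 202 ± 26.3 CPM and Zar1l from 182 ± 35.4 to 86.5 ± 20.4 CPM. Of the pluripotency genes Tcl1 rose from 244 ± 120 to 596 ± 194 CPM, Lin28a from 154 ± 45.7 to 250 ± 65.9 CPM and Dppa2 by 0.38 ± 0.06 on the log2 scale, while Dppa5a fell from 74.7 ± 33.7 to 21.3 ± 15.5 CPM. Sox2, the usual partner of POU5F1, was at 1.38 CPM in GV and 1.79 CPM in MII. Among genes of the activated genome Tcstv1 fell by 1.15 ± 0.15, and Sp110 and Hspa8 by 0.49 ± 0.07 each, and Arg2 rose by 0.22 ± 0.07.

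In D2 against B6 in MII, calls in 4 lists were all in the direction of D2, with 8 of 26 Hippo genes higher, 7 of 20 TIF1 and bromodomain relatives, 6 of 12 ISWI partners and 6 of 19 cohesin and loop genes. Of all 19003 tested genes 2552 were higher (13.4%) and 2467 lower. The 4 lists were singled out by this result. In the Hippo list Ptpn14 was higher by 2.88 ± 0.33 on the log2 scale, Mob1a by 1.49 ± 0.21, Tead1 by 1.35 ± 0.16 (adjusted p = 5e-08) and Taok1 by 0.30 ± 0.10, whereas Yap1 itself did not pass. In the other 3 lists the cohesin subunit gene Stag1 was higher by 1.40 ± 0.12, Brd8 by 1.15 ± 0.11, Trim28 by 0.73 ± 0.13, Phip by 0.69 ± 0.11 and Baz2b by 0.51 ± 0.09. Among BAF subunits 5 of 27 were higher and 4 lower, and Smarca2 was lower in D2 like Smarca4, by 0.52 ± 0.09 on the log2 scale. Of the other maternal factors 8 of 34 were higher, Sirt1 by 1.45 ± 0.12 and Nobox by 0.66 ± 0.11 among them, and 3 were lower, with Nfya at −0.44 ± 0.10.

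**Figure D5:**
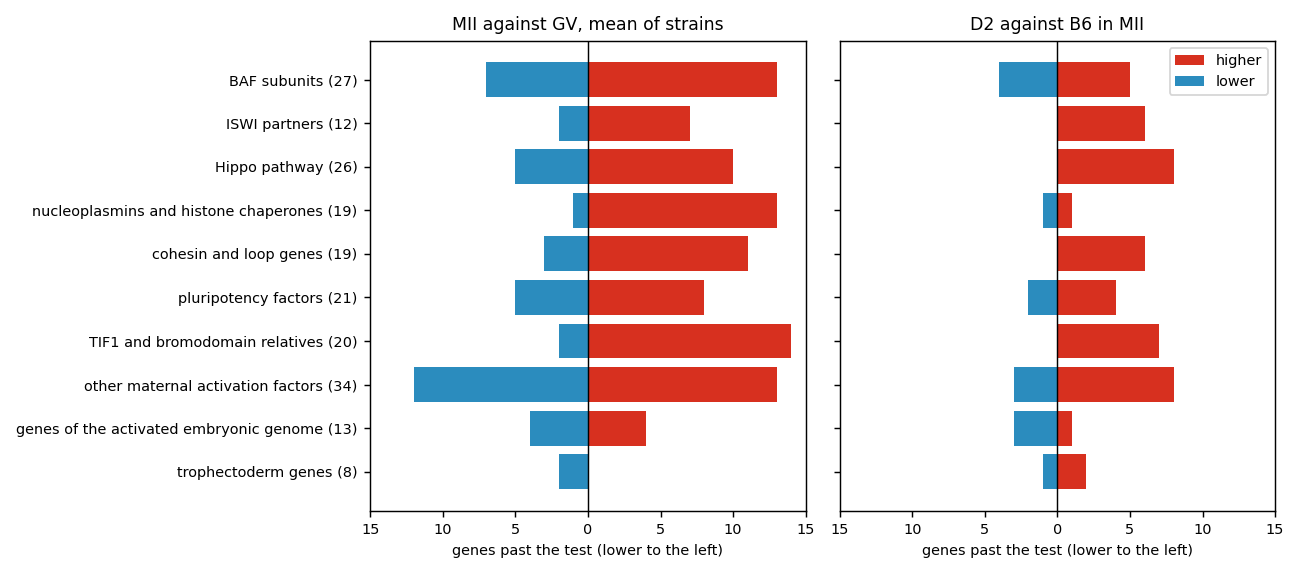
Number of genes per partner list that were higher (right, red) or lower (left, blue) in MII against GV and in D2 against B6 in MII, with the number tested in brackets. In the stage comparison calls in both directions occur in 9 of the 10 lists, and in the strain comparison 4 lists have calls in the D2 direction alone.

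The genes whose pattern was most like that of each member were taken over the 32 libraries, from 8859 genes of at least 5 CPM, on log2 CPM less the batch mean. For Yap1 they were Tcl1b2 and Tcf20 (r = 0.95 each) and Cecr2 (0.94), for Brwd1 Arhgap12 (0.94), Ube2k (0.93) and Mphosph10 (0.91), for Trim24 Zfp57, Tmtc1 and Cir1 (0.93 each), and for Ctcf Prdm16 and Prickle1 (0.92 each) and Usp19 (0.91). For Npm2 they were Arpc5l (0.92), Puf60 (0.91) and Rpa2 (0.90), and for Smarca5 Zfp654 (0.90), Rock1 (0.87) and Lin28b (0.85). Smarca4 and Pou5f1 had no pattern as close, with Tmem214 (0.79) and Slc30a3 (0.79) nearest. The counts of Tead4 were too sparse for such a value.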

How the data were processed

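Per the labels' protocols, RNA from pools of oocytes was amplified by single primer isothermal amplification, made into libraries with 12 PCR cycles and read as 50 nt single reads. The submitters' processing notes name HISAT2, SAMtools, featureCounts (Subread 1.5.1), DESeq2 1.16.1 and the build GRCm38.p4. How strand and multi-mapping reads were treated is not given in the sources used here. Raw counts for each gene were deposited by the authors. Of 37444 entries, 3 named no gene and held at most 0.019% of a library.

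Counts were filtered with filterByExpr on the 6 groups, scaled by TMM (factors 0.81 to 1.19) and fitted with edgeR 4.0.16 (R 4.3.3), robust quasi-likelihood, with group and batch as terms. Two-sided tests in 14 contrasts were adjusted by Benjamini-Hochberg over 19003 genes, threshold 0.05. SE is the log2 change divided by the square root of F, and intervals are 1.96 SE to each side. CPM used TMM-scaled totals, and log2 CPM used a prior count of 3. Transcript lengths are from GENCODE. Members and lists were chosen with earlier results of these data known. Partner genes named were called, of at least 5 CPM and alike in sign in both batches, at most 4 per list by lowest adjusted p, and 3 nearest genes per member by Pearson correlation. A partner gene that this rule names is not reported here. Closest relatives of the members, and Sox2, which the rule does not cover, were named after their values were seen. Each library holds oocytes of 1 female. DESeq2 1.42.0 and limma 3.58.1 served as alternatives.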

Additional observations from a re-analysis of the deposited data

Results flagged for a closer look

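In 54 combinations of a gene and a group, 7 held a library far from the others of its group. Chance flags about 1 in 20 groups where values are normally distributed. Batches were not separated here and Tead4 counts are sparse, so that rate need not hold. Trim24 was at 540 CPM in D2 GV batch 2 replicate 2, where the other D2 GV libraries ran from 311 to 358 CPM, and at 658 CPM in D2 MII batch 2 replicate 2 against 493 to 517 CPM. The D2 GV library is among the 3 GV libraries lowest in granulosa markers, with a sum of 235.9 CPM. Both Trim24 libraries are of batch 2, where Trim24 was higher by 0.31 ± 0.06 on the log2 scale (SE). Replicate 1 of that batch was at 357.8 CPM in D2 GV and 506.2 CPM in D2 MII. The part of batch or granulosa level was not tested. Yap1 was at 1030 CPM in B6 MII batch 2 replicate 3, and in the other B6 MII libraries at 721 to 822 CPM.

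Tead4 gave the other 4, each a library with 18 to 51 reads among libraries with few or none. It was at 2.10 CPM in B6 GV batch 2 replicate 2 (others 0 to 0.278 CPM), 0.979 CPM in D2 GV batch 1 replicate 3 (0 to 0.108 CPM), 0.969 CPM in F1 GV batch 2 replicate 3 (0 to 0.209 CPM) and 0.579 CPM in F1 MII batch 1 replicate 3 (0 to 0.0738 CPM).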

How the results depend on the processing

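Numbers in brackets after a count of members are the calls over all genes in the same fit, which also changed with the setting. Of the 9 genes, 7 were called between the stages over the strains (9862). In batch 2 alone 4 were called (4503), and with the granulosa marker level as a covariate 2 (2344). In B6 5 were called (5065), against 3 in batch 2 alone (1384), 3 with no batch term (3448) and 3 with the covariate (1543). In F1 7 were called (6244), against 2 in batch 2 alone (812) and 4 with no batch term (3566). The covariate gave 2 in F1 (1558) and plain library totals gave 4 (5383). In D2 6 were called (5461), against 1 in batch 2 alone (769) and 1 with the covariate (1446). For D2 against B6 in GV 2 were called (3891), 0 in batch 1 alone (2449) and 1 with no batch term (2558). Trim24 was gained there in 6 settings, with adjusted p of 0.0444 by limma-voom, 0.0375 with the stricter filter, 0.0421 with the covariate and 0.0442 with plain totals, and without the 3 GV libraries lowest in granulosa markers it was called (0.0266) where Yap1 was not (0.136). For D2 against B6 in MII 1 was called (5019). It was 0 with no filter on low counts (4690), in batch 1 alone (3439), in batch 2 alone (2160) or with no batch term (3615). For F1 against B6 in GV 1 was called (1045), 0 in batch 1 alone (216) and 0 without the 3 GV libraries lowest in granulosa markers (560). A batch alone has fewer libraries. The cause of the other changes was not tested. Plain totals and the 3 libraries were chosen after seeing the data. Smarca5 over the strains moved to −0.02 in batch 2 alone, 0 with the covariate and −0.01 with plain totals, and missed the threshold in 4 other settings. Leaving out each library in turn gave 6 to 7 calls over the strains, 4 to 6 in B6, 5 to 7 in F1, 5 to 6 in D2, 2 to 3 for D2 against B6 in GV, 0 to 1 in MII and 1 for F1 against B6 in GV. Calls over all genes in the fits that left out a library are not given here. The 7 comparisons without a called member had 0 under each setting.

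Correlations of the deviations of same-numbered libraries ran from −0.46 to 0.36 (median 0, 59 pairs). Those of other-numbered libraries ran from −0.36 to 0.46 (median 0, 157 pairs). Deviations were taken from means of only 2 or 3 libraries, so these values cannot decide what a shared number means. With the replicate block Trim24 was called in D2 against B6 in GV (adjusted p = 0.0375), and 2 members were called in D2 against B6 in MII, Smarca4 and Tead4, the latter from at most 26 reads per library. Over all genes 4245 were called in that MII comparison. Depth limits Tead4 alone.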
